A study of Mus musculus with 6 samples.

Results

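The genes described here are components of the Ras, Raf and ERK cascade, chosen by name: Nras and Hras (small GTPases), Rasgrp1 and Rasgrf1 (activators of Ras), Braf (a Raf kinase), Map2k1 (the kinase MEK1) and Mapk3 (the kinase ERK1). Of these 7 genes, 5 had a probe set carrying their symbol alone in the platform annotation, out of 8251 genes so named in the series. Hras and Mapk3 are not analysed here. The 5 genes were read by 8 probe sets.

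The samples were visual cortex of wild-type C57Bl6 mice at P104 (postnatal day), collected 4 days after 1 eye was removed at P100. The deprived group was the hemisphere contralateral to the lost eye (3 arrays), and the non-deprived group was the ipsilateral hemisphere (3 arrays). Both groups came from the same kind of enucleated animals, so no array shows cortex of a mouse with both eyes. The labels name 4 enucleated mice and pooled samples, and do not say how mice were shared among the arrays. Every p-value, SE and interval thus measures only the spread between these arrays, which may be technical.

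The cascade carries signals from the membrane to the nucleus. Exchange factors load Ras with GTP, active Ras recruits Raf, Raf phosphorylates MEK, and MEK phosphorylates ERK. In neurons it is switched on by calcium entry and neurotrophin receptors, and ERK then acts on transcription factors that drive immediate-early genes such as Fos and Egr1. The proteins are switched by GTP loading and phosphorylation, which an RNA array does not measure.

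Signals are MAS5 values, a brightness in arbitrary units that was scaled alike on all arrays and can be compared between arrays for 1 probe set but not between probe sets. Median signal lay between 202.8 and 219.7 on the 6 arrays. The 3′ to 5′ signal ratio of β-actin, a sign of RNA integrity, ranged over 1.26 to 1.63 in deprived and 1.28 to 1.51 in non-deprived arrays. The 3′ probe set of 18S ribosomal RNA read 2689 on non-deprived replicate 3 and 661 to 981 on the other 5 arrays, so results that rest on that array are also given without it. On 9 lists of markers of neurons, glia, vessels, blood and neighbouring regions, 43 genes were tested and no marker read 0. By limma 0 of the 43 had an adjusted p under 0.05, against 0.174% of all 7453 tested probe sets. By the same fit 4 (9.3%) had an unadjusted p under 0.05, a higher share than the 5.09% of all tested. Of the 9 tested neuron markers 8 had a lower mean in deprived cortex, with a median log2 change of -0.14, 2 at an unadjusted p under 0.05 and a lowest limma adjusted p of 0.26. Their summed signal was 36473, 40724 and 36179 in deprived arrays, against 39601, 41613 and 41974 in non-deprived arrays, and the groups overlapped. The 3 tested hippocampus markers all had a higher mean in deprived cortex. Their median log2 change of 0.49 was the largest in size of the 9 lists, with 1 at an unadjusted p under 0.05 and a lowest limma adjusted p of 0.95.

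None of the cascade genes measured brightly enough to test was shown to differ between deprived and non-deprived cortex. A probe set was tested if it stood in the top 60% by mean signal over all arrays, which meant a mean of at least 134.7. Of the 8 probe sets 5 were tested, representing Nras, Rasgrp1, Rasgrf1 and Map2k1. By limma on log2(signal + 16), 0 of the 5 had an adjusted p under 0.05, against 0.174% of all 7453 tested probe sets (13 in all). None of the 5 had an unadjusted p under 0.05, against 5.09% of all tested, and the arrays of the 2 groups overlapped for each of the 5, while they did not overlap for 10.1% of all tested. Of the 4 tested genes, 2 had a higher and 2 a lower mean in deprived cortex, with a median log2 change of -0.01, beside 0.01 for all tested probe sets.

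**Figure D1:**
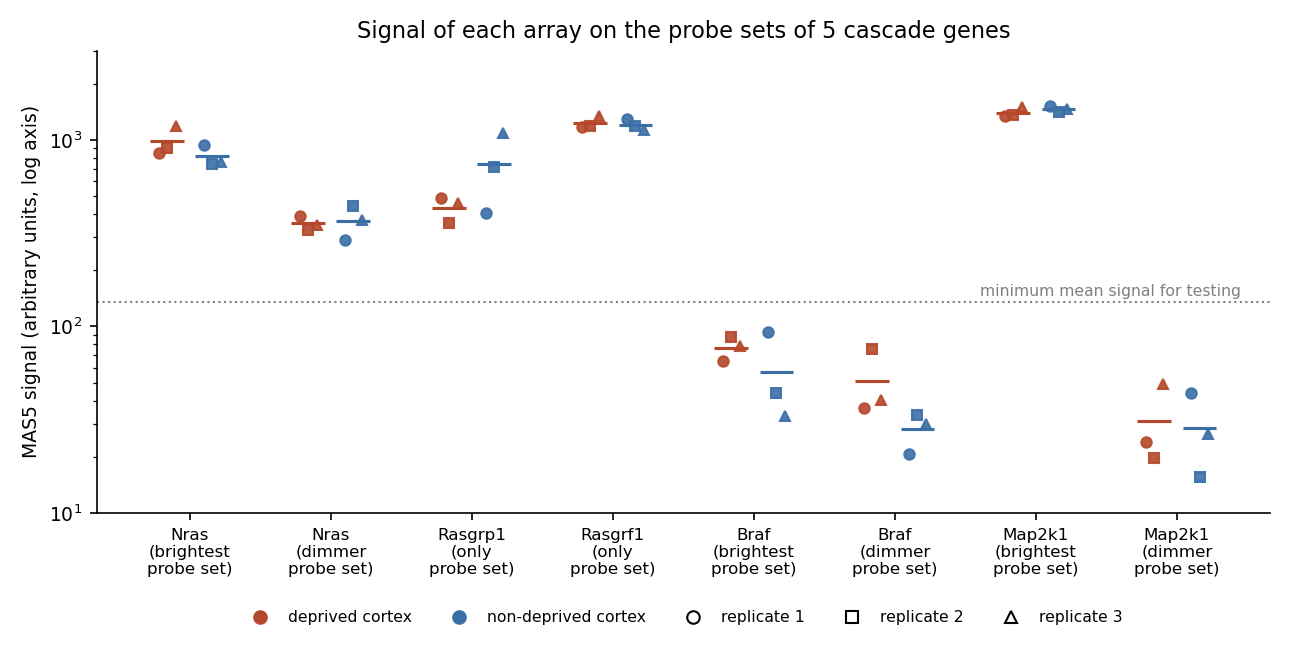
MAS5 signal (arbitrary units, log axis) of every array on the 8 probe sets of Nras, Rasgrp1, Rasgrf1, Braf and Map2k1. Each point is an array, its shape the replicate number, with deprived arrays left of non-deprived arrays and short lines at the group means; the dotted line is the mean signal of 134.7 that testing required. Both groups lie over each other for Rasgrf1 and Map2k1, and the non-deprived points of Rasgrp1 spread from 405 to 1088.

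Nras encodes a membrane-anchored small GTPase that cycles between GDP-bound and GTP-bound forms. Its brightest probe set read 848, 907 and 1187 in deprived arrays, against 943, 742 and 759 in non-deprived arrays. The highest value was deprived replicate 3, and the groups overlapped because non-deprived replicate 1 exceeded 2 of the deprived arrays. The means were 981 ± 181 in deprived and 815 ± 112 in non-deprived cortex (SD, n = 3 each), a log2 change of 0.26 (SE 0.16, 95% interval -0.10 to 0.61, limma adjusted p = 0.97).

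The second Nras probe set disagreed with the first in sign. It read 392, 330 and 351 in deprived arrays, against 289, 441 and 370 in non-deprived arrays, so the deprived values lay inside the non-deprived range. Its log2 change was -0.02 (SE 0.19, 95% interval -0.45 to 0.41, limma adjusted p = 1.00). That interval includes the 0.26 of the brighter probe set.

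Rasgrp1 encodes an exchange factor that binds calcium and diacylglycerol and so couples phospholipase C signals to Ras. It had the largest log2 change among the tested cascade genes. Its only probe set read 485, 356 and 458 in deprived arrays, against 405, 719 and 1088 in non-deprived arrays. Non-deprived replicates 2 and 3 stood above every deprived array, while non-deprived replicate 1 lay within the deprived range. Rasgrp1 averaged 433 ± 67.7 in deprived and 737 ± 342 in non-deprived cortex (SD, n = 3 each). The highest non-deprived array was 2.69 times the lowest, whereas the deprived arrays spanned 1.36-fold.

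The Rasgrp1 log2 change of -0.65 (SE 0.30, 95% interval -1.32 to 0.02, limma adjusted p = 0.95; unadjusted p = 0.056) was larger in size than that of 96.6% of tested probe sets, and its within-group SD, 0.52 on the log2 scale, was larger than that of 90.7% of them. The interval reaches from no difference to a 2.50-fold lower level in deprived cortex, so for Rasgrp1 these arrays settle neither. Non-deprived replicate 3 had both the outlying 18S signal and the highest Rasgrp1 value, and with it left out the log2 change was -0.32 (SE 0.26). Without non-deprived replicate 1 it was -1.02 (SE 0.22, limma adjusted p = 0.30).

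Signals of genes listed as markers of neighbouring brain regions were summed on each array and set beside Rasgrp1. Every array is of visual cortex, and cortical cells may express these genes too. The sums therefore do not measure how much tissue of those regions was present. The summed signal of 5 of 5 thalamus markers was 2981, 3277 and 2837 in deprived arrays, against 3055, 3541 and 3856 in non-deprived arrays. For 3 of 5 hippocampus markers the sum was 1766, 2240 and 1601 in deprived arrays, against 1612, 1209 and 1345 in non-deprived arrays. For 3 of 5 striatum markers it was 1083 to 1510 in deprived and 1320 to 1463 in non-deprived arrays. Non-deprived replicates 2 and 3, where Rasgrp1 was high, had the 2 highest thalamus, the 2 lowest hippocampus and the 2 highest neuron sums, and no marker was at 0. The part of these differences in the Rasgrp1 result was not tested. In bulk tissue, fewer cells of a type and less RNA per cell cannot be told apart.

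**Figure D2:**
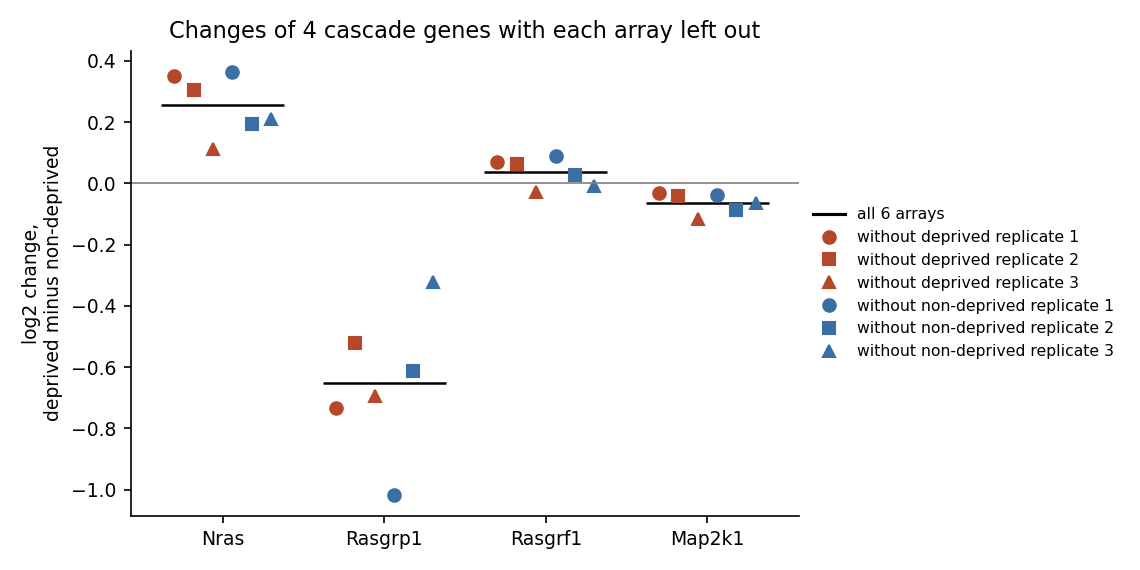
Log2 change, deprived minus non-deprived (vertical axis), of the brightest probe set of Nras, Rasgrp1, Rasgrf1 and Map2k1 with all 6 arrays (black line) and with each array left out (points; colour gives the group, shape the replicate number left out). Rasgrp1 ranged from -1.02 to -0.32 and Nras from 0.11 to 0.36, while Rasgrf1 and Map2k1 stayed within -0.12 to 0.090.

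Rasgrf1 encodes an exchange factor that is activated by calcium-bound calmodulin, is abundant in neurons and is imprinted in mouse brain. Its only probe set read 1171, 1183 and 1343 in deprived arrays, against 1293, 1183 and 1127 in non-deprived arrays. The 2 ranges nearly coincided. Rasgrf1 averaged 1232 ± 96.4 in deprived and 1201 ± 84.3 in non-deprived cortex (SD, n = 3 each), a log2 change of 0.04 (SE 0.11, 95% interval -0.22 to 0.29, limma adjusted p = 0.99). The interval runs from a 1.16-fold lower to a 1.22-fold higher level in deprived cortex. Its sign turned without deprived replicate 3 (-0.027) or without non-deprived replicate 3 (-0.0077). Of the 3 other tested exchange factors on a list of Ras activators, Sos1, which receptor adaptors bring to Ras, had a log2 change of 0.16 (SE 0.34), the related Sos2 0.08 (SE 0.31) and Rasgrp2 -0.07 (SE 0.17).

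Map2k1 encodes MEK1, which phosphorylates and activates ERK. Its brightest probe set read 1335, 1357 and 1507 in deprived arrays, against 1517, 1411 and 1458 in non-deprived arrays. Deprived replicate 3 lay among the non-deprived values and the other 2 deprived arrays just under them. The means were 1400 ± 93.5 in deprived and 1462 ± 53.2 in non-deprived cortex (SD, n = 3 each), a log2 change of -0.06 (SE 0.10, 95% interval -0.29 to 0.17, limma adjusted p = 0.97). Map2k1 was the most tightly measured of these genes: its within-group SD was 0.08 on the log2 scale, and only 5.33% of tested probe sets had a smaller one. The interval runs from a 1.22-fold lower to a 1.12-fold higher level in deprived cortex. A second Map2k1 probe set, of the _r type, was too dim to be tested at 19.6 to 49.4 in deprived and 15.6 to 43.7 in non-deprived arrays; its log2 change of 0.07 (SE 0.36) had the opposite sign. Map2k2, which encodes MEK2, averaged 507 ± 91.6 in deprived and 426 ± 53.1 in non-deprived cortex (SD, n = 3 each), a log2 change of 0.23 (SE 0.18, limma adjusted p = 0.97).

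Braf encodes a kinase that Ras-GTP recruits and that phosphorylates MEK. Both of its probe sets were below the signal that testing required, and neither is shown to be above background, so the level of Braf is not established. The brightest read 65.1, 87.2 and 78.5 in deprived arrays, against 93.8, 43.9 and 32.9 in non-deprived arrays, and the groups overlapped. The dimmer read 36.3, 75.4 and 40.3 in deprived arrays, against 20.8, 33.4 and 29.9 in non-deprived arrays. On the dimmer probe set every deprived array was above every non-deprived one, as was the case for 3.54% of the 4969 probe sets too dim to be tested. In a fit of all probe sets without the signal filter, the log2 changes of Braf were 0.43 (SE 0.39) and 0.56 (SE 0.34), each with a limma adjusted p = 0.98.

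**Figure D3:**
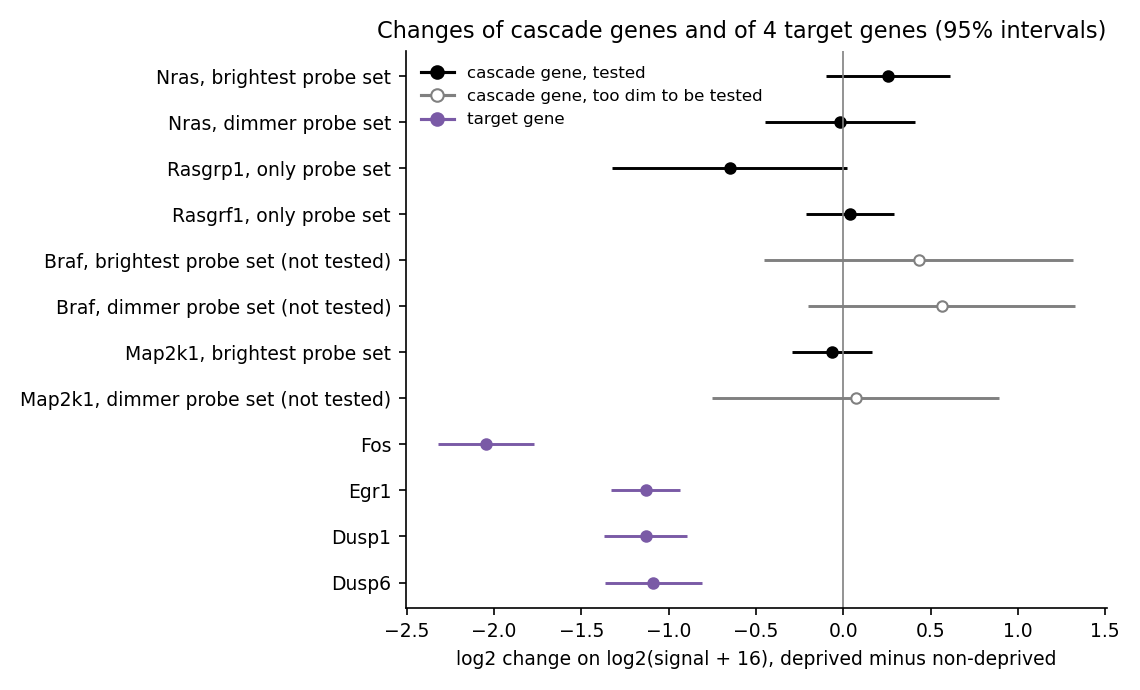
Log2 change on log2(signal + 16), deprived minus non-deprived (horizontal axis), with 95% intervals from limma, for the 8 probe sets of the cascade genes and for Fos, Egr1, Dusp1 and Dusp6. Filled black points are tested cascade probe sets, open grey points are those too dim to be tested (error from a fit without the signal filter), and purple points are target genes. The tested cascade intervals all include 0, and the 4 target genes lie between -2.05 and -1.09.

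Promoter windows show which of these genes carry, near the start site, letters that the activity-regulated factors CREB and serum response factor are known to read. The GC box was searched as well and is not counted as such a site. RefSeq windows (assembly GRCm38.p6) of 250 bases before to 50 bases after the start site were available for all 5 measured genes. They were searched on both strands for the cAMP response element TGACGTCA, which CREB binds, for its half-site TGACG, which also lies inside the full element, for the CArG box that serum response factor binds and for the GC box GGGCGG. Braf held 2 full elements, starting 99 and 81 bases before the start site. A full element occurs in 1.79% of all 32851 promoter windows and more than 1 in 0.0396%. Dusp1, a gene that fell in deprived cortex (values below), held 1, starting 143 bases before the start site, and Fos held 2 half-sites and no full element. Dusp6, which also fell, held none of the 4 motifs in its window. The 3 windows are printed 5′ to 3′ to show where the element or its half-site lies in a cascade gene and in 2 of the 3 genes that fell whose windows were searched; capitals mark TGACG on either strand.
Braf promoter, chr6:39725414-39725713, minus strand: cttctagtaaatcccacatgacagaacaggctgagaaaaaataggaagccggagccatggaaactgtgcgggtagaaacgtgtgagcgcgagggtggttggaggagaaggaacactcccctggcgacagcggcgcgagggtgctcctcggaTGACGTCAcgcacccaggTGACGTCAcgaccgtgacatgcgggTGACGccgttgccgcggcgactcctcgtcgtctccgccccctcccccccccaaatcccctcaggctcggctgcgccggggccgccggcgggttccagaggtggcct
Dusp1 promoter, chr17:26508423-26508722, minus strand: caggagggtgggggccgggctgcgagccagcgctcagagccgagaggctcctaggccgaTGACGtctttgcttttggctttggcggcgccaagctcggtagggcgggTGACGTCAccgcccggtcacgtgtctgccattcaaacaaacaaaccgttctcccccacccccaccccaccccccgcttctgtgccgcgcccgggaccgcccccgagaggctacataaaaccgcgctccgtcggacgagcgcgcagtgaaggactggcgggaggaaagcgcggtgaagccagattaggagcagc
Fos promoter, chr12:85473640-85473939, plus strand: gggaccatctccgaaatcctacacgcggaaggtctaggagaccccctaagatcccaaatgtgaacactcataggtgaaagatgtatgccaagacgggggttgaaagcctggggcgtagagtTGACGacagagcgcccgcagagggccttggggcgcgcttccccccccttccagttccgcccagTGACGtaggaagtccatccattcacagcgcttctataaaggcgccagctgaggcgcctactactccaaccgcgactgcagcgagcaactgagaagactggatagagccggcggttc
Among the other measured cascade genes, Map2k1 held 2 half-sites and Rasgrf1 1, against 20.8% of all windows with at least 1. Nras and Rasgrp1 held neither the element nor its half-site, and no measured cascade gene held a CArG box, which occurs in 1.63% of windows. The windows of Fos, Dusp1 and Dusp6 held no CArG box either, so this absence does not set the cascade genes apart from them. Sites more than 250 bases before the start site were not searched. The windows therefore cannot show whether any of these genes, Fos included, lacks a CArG box further upstream. A GC box was found in each of the 5 windows and in 35.7% of all windows. These matches describe letters in a window and not binding.

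The wider pathway likewise had no gene past the threshold. Lists of 107 signalling genes were drawn up under 8 roles, and 49 of them were tested, 45 of which were not among the 7 components. By limma 0 of the 49 rose and 0 fell at an adjusted p under 0.05, against 0.0134% and 0.161% of all tested probe sets. A count of 0 among 49 genes is near those shares. By the same fit 1 had an unadjusted p under 0.05, which is 2.04%, beside 5.09% of all tested probe sets. Each gene was counted by its brightest tested probe set. A dimmer tested probe set of Mknk2, not counted here, had a limma unadjusted p of 0.0077 (values below). Of the 49, 27 had a higher and 22 a lower mean in deprived cortex, with a median log2 change of 0.01, the same to this precision as over all tested probe sets. The range was -0.65, for Rasgrp1, to 0.53, for Map3k7, a kinase upstream of JNK and p38.

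Among Ras family GTPases, 0 of 3 tested genes passed (median 0.26). Rap1a, a GTPase related to Ras, had a log2 change of 0.30 (SE 0.27) on the brighter and -0.23 (SE 0.34) on the dimmer of its probe sets, and Mras -0.05 (SE 0.13). Among GTPase activating proteins, which switch Ras and its relatives off, 0 of 6 passed (median -0.05). The lowest unadjusted p of the 49 genes belonged to Rap1gap, which inactivates Rap1. Rap1gap read 2581, 2910 and 2725 in deprived arrays, against 3223, 3889 and 4226 in non-deprived arrays. Every deprived array was lower than every non-deprived one, and the log2 change was -0.45 (SE 0.11, unadjusted p = 0.0024, limma adjusted p = 0.43). Rasa4 had a log2 change of -0.45 (SE 0.43).

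Adaptors that link receptors to Ras had 0 of 3 past the threshold (median -0.09), with Crkl at -0.27 (SE 0.26) and Gab1 at 0.22 (SE 0.34). Raf, MEK and ERK family kinases had 0 of 3 (median -0.06). Besides both MEK genes that list measured Map3k8, a kinase that phosphorylates MEK, at -0.48 (SE 0.26) on an _r probe set. Scaffolds and protein inhibitors had 0 of 13 (median 0.00), with Pea15a, which holds ERK in the cytoplasm, at 0.12 (SE 0.16) and the feedback inhibitor Spry4 at -0.15 (SE 0.28). Kinases and transcription factors that ERK phosphorylates had 0 of 4 (median -0.08), with Mknk2 at -0.26 (SE 0.19) and Mknk1 at -0.20 (SE 0.32). The parallel JNK, p38 and ERK5 cascades had 0 of 12 (median 0.17, with 9 higher and 3 lower), with Map3k7 at 0.53 (SE 0.27) and Map3k3 at 0.31 (SE 0.16). As for Rap1gap, the groups did not overlap for Map3k8, Map3k7 and Map3k3. The groups lay apart for 2 of 6 GTPase activating proteins, 1 of 3 Raf, MEK and ERK family kinases and 2 of 12 genes of the parallel cascades. They overlapped for every gene of the remaining signalling lists, beside 10.1% of all tested probe sets that did not overlap. Without non-deprived replicate 3, 0 genes passed on each of these 8 lists, and the medians changed sign for the activators (-0.12), the adaptors (0.045) and the ERK substrates (0.065).

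**Figure D4:**
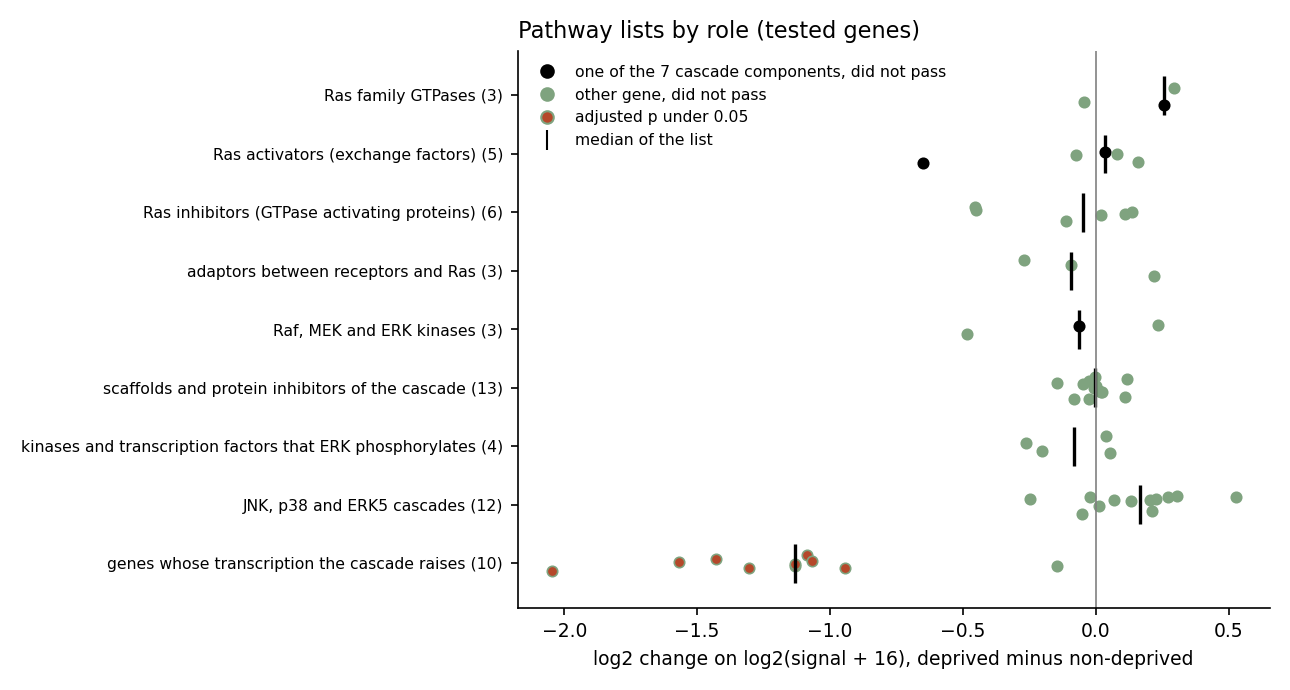
Log2 change on log2(signal + 16), deprived minus non-deprived (horizontal axis), of each tested gene on 9 lists by role (rows, with the number tested). Black points are cascade components, green points other genes, orange-centred points genes with an adjusted p under 0.05, and vertical marks the list medians. The 8 signalling lists have medians from -0.09 to 0.26 and no gene past the threshold, and 9 of 10 target genes lie at -0.94 or below.

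Genes whose transcription the cascade is known to raise were lower in the same arrays. Of 10 tested genes on that list 9 fell and 0 rose (limma adjusted p under 0.05, against 0.161% of all tested probe sets that fell and 0.0134% that rose), with a median log2 change of -1.13. The list was drawn up with these falls already known, so it is not independent evidence of its direction. Fos read 758, 602 and 749 in deprived arrays, against 2837, 2784 and 3217 in non-deprived arrays (log2 change -2.05, SE 0.12, limma adjusted p = 0.00014). Dusp6, whose product dephosphorylates ERK, read 837, 849 and 873 in deprived arrays, against 2050, 1914 and 1560 in non-deprived arrays (log2 change -1.09, SE 0.12, limma adjusted p = 0.0059). The groups lay apart for both genes. The part of the neuron marker differences given above in these falls was not tested.

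The other genes of that list that fell were Egr2 (-1.57), Junb (-1.43), Nr4a1 (-1.30), Egr1 (-1.13), Dusp1 (-1.13), Ier2 (-1.07) and Bdnf (-0.94), given as log2 changes with limma adjusted p from 0.00048 to 0.045. Spry4 did not pass. Without non-deprived replicate 3, 7 of the 10 passed (Ier2 and Bdnf no longer did) and the median was -1.18. The Junb value came from an _r probe set, and its dimmer probe set also fell (-1.13, SE 0.10, limma adjusted p = 0.0011). Dimmer probe sets of Fos (-0.64, SE 0.36), Egr1 (-0.49, SE 0.56) and Dusp6 (-0.73, SE 0.49) were too dim to be tested. Set beside these falls, the 95% intervals of Map2k1 (-0.29 to 0.17), Rasgrf1 (-0.22 to 0.29) and both Nras probe sets (-0.10 to 0.61 and -0.45 to 0.41) do not reach the log2 change of Dusp6, the smallest in size of the 4 target genes plotted. The interval of Rasgrp1 (-1.32 to 0.02) does reach it. A p that misses the threshold does not show that the cascade genes were the same in both hemispheres.

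The genes whose pattern over the 6 arrays was most like each cascade gene were found by the root mean square difference of mean-centred log2 signals, a description over 6 arrays. Closest to Rasgrp1 among 6715 probe sets were Trpm1 and Akap2, at a difference of 0.17 each, a larger difference than for the other 3 genes. Trpm1 read 180, 121 and 159 in deprived arrays, against 140, 207 and 299 in non-deprived arrays, with the same 2 non-deprived arrays high. Trpm1 was picked for its likeness over these same arrays, so that match follows from the choice. Closest to Nras were Rbm25 (0.04) and Trafd1 (0.06), to Rasgrf1 Pcbp2 and Ppp2r1a (0.02 each), and to Map2k1 Adgrb1 and Hmgb3 (0.02 each). None of these 8 probe sets passed the test, and they were picked for likeness to genes that did not pass.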

How the data were processed

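RNA of visual cortex was hybridised to 6 arrays. Signal intensity values were made with MAS5, per the submitters' processing notes, and the authors deposited them as intensity on a linear scale for 12488 probe sets. All arrays had a 2% trimmed mean of 500.3 as deposited, which hides any change in total mRNA. Detection calls and scanner output were not used here. Symbols came from the platform annotation, checked through Entrez IDs against RefSeq (10839 of 10855 matched, 0 changed). Control probe sets (66) took no part in the fit. The remainder in the top 60% by mean signal were tested on log2(signal + 16) with limma 3.58.1 in R 4.3.3 (group as the only term, eBayes with an intensity trend, two-sided, Benjamini-Hochberg over 7453 probe sets). The pseudocount of 16 shrinks changes of dim probe sets. The fit was tested on simulated data in which 200 of 7453 probe sets differed, whereas 13 passed in the real arrays. The spread of each simulated probe set was the one estimated from these arrays. An adjusted threshold is easier to reach where more probe sets differ, so the shares recovered need not hold for the real arrays. In those data it recovered 2.1% of probe sets differing 1.25-fold, 20.2% at 1.5-fold, 52.6% at 2-fold and 78.5% at 3-fold. Of its calls there 4.7% were false. Most differences of 1.5-fold or less were thus missed there. The brightest probe set stood for a gene; a dimmer one was named as disagreeing at the opposite sign or a log2 difference over 0.5. All 8 probe sets of the components were named, and from each list the genes past the threshold and the 2 others with the smallest p, with Fos, Egr1, Dusp1 and Dusp6. Members and lists were chosen with earlier results of these data known. Alternatives were quantile normalization, pseudocounts of 1 and 64, no filter, the top 40%, the replicate number as a block, each array left out, no intensity trend and averaging the probe sets of each gene. The number of arrays limits the precision.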

Additional observations from a re-analysis of the deposited data

How the results depend on the processing

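Under all 14 alternatives 0 probe sets of the cascade components passed, including fits without each array, whose smallest adjusted p was 0.30 (Rasgrp1, without non-deprived replicate 1). With each array left out, the log2 change ranged from -1.02 to -0.32 for Rasgrp1, 0.11 to 0.36 for the brightest Nras probe set, -0.17 to 0.12 for the dimmer one, -0.027 to 0.090 for Rasgrf1 and -0.12 to -0.03 for Map2k1. Sign changes occurred for the dimmer Nras probe set (0.04 without deprived replicate 2 and 0.12 without non-deprived replicate 2) and for Rasgrf1 (-0.027 without deprived replicate 3 and -0.0077 without non-deprived replicate 3). When the probe sets of each gene were averaged, Map2k1 stood at 0.0042, since its dim _r probe set then counts equally. Over the 8 alternatives that keep all arrays, Rasgrp1 lay between -0.69 and -0.60 and Nras between 0.12 and 0.26. The number of all probe sets past the threshold was 9 to 13 over those 8, and 7 to 10 with an array left out (against 13 with all arrays, 8 passed when deprived replicate 3 was left out, 7 when non-deprived replicate 2 was and 8 when non-deprived replicate 3 was); fewer arrays enter those fits. Without non-deprived replicate 3, an alternative for the pathway lists chosen after seeing the data, list medians were -0.12 for Ras activators, 0.045 for adaptors and 0.065 for ERK substrates; the cause was not tested.

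The labels do not say whether same-numbered arrays came from the same mice. Deviations of same-numbered arrays correlated across probe sets at 0.0030, 0.049 and -0.020, and those of differently numbered arrays at -0.098 to 0.10. These values show no sign of pairing but cannot settle whether mice were shared. With the replicate number as a block, 10 probe sets passed, none of them a cascade component, and Rasgrp1 had a log2 change of -0.65 (SE 0.26, limma adjusted p = 0.92). No detection calls were used, so a signal under 134.7 may be background, and the level of Braf is not established.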

Other observations

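Mknk2, a kinase that ERK activates and that phosphorylates a translation initiation factor, gave opposite signs on its 2 tested probe sets. The brighter read 379, 554 and 595 in deprived arrays, against 529, 653 and 631 in non-deprived arrays (log2 change -0.26, SE 0.19, limma adjusted p = 0.97). The other read 576, 457 and 403 in deprived arrays, against 352, 223 and 291 in non-deprived arrays, with no overlap. Its log2 change was 0.71 (SE 0.21, limma unadjusted p = 0.0077, limma adjusted p = 0.77). Neither passed. Map3k3, named above at 0.31 on its brightest probe set, had log2 changes of -0.10 (SE 0.33) and -0.09 (SE 0.30) on 2 dimmer tested probe sets.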
